A study of Rattus norvegicus with 6 samples.

Results

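IRF1, IRF7, IRF9 and STAT2, which are transcription factors of the interferon response, the interferon-induced effectors GBP2, MX1, ISG15 and IFIT3, and SLFN12 of the Schlafen family were followed in rat glomeruli. These 9 symbols were looked up in the authors' tables of differential expression, which list human symbols in capitals, and led to 11 rat gene IDs of the 26319 in the count table, because MX1 and SLFN12 each carry 2 IDs. The genes were chosen with their levels and changes in these libraries already known. Those levels and changes are therefore given as a description, and nothing is read from the test results of these genes. All 11 IDs passed the filter on low counts, as did 13426 IDs in all.

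Glomeruli, the tufts of capillaries that filter blood in the kidney, were isolated from Sprague Dawley rats, and their mRNA was sequenced in 6 libraries that form 3 groups of 2. Rats of the AT1R Tg AC1903 group (AC1903 below) were transgenic for the angiotensin II receptor of type 1 (AT1R), received AC1903, which inhibits the TRPC5 channel, and were 23.0 and 20.4 weeks old. AT1R Tg rats given vehicle (vehicle below) were 20.4 and 17.4 weeks old, and wild-type rats (WT), whose treatment is also labelled vehicle, were 20.4 and 21.9 weeks old. The labels give neither the promoter of the transgene nor the dose of AC1903 nor whether a library is 1 animal. Ages differ between the 2 libraries of each group, so these come from different rats. The spread between them thus includes differences of animal and age beside technical ones.

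Total expected counts were 12325515 and 12637582 in AC1903, 13464600 and 14230770 in vehicle, and 25045081 and 36026772 in WT. All 18 podocyte markers had counts in every library. So did all 19 proximal tubule markers, and such counts alone therefore do not identify the tissue. The proximal tubule markers were lowest in WT, with summed levels of 7000 and 6990 CPM in AC1903, 6748 and 12920 CPM in vehicle, and 4731 and 2925 CPM in WT. The libraries are bulk RNA, in which fewer cells of a type and less RNA per cell cannot be told apart. CPM (counts-per-million) is a gene's counts scaled to library size, here after normalisation by trimmed means (TMM). Since it is not divided by gene length, levels are compared between libraries and not between genes.

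Interferons bind receptors on the cell surface and activate the Janus kinases, which phosphorylate transcription factors of the STAT family. With type I interferon, STAT2 and IRF9 take part in the complex ISGF3, which binds interferon-stimulated response elements (ISRE) in target genes. The interferon gamma response acts through gamma-activated sites (GAS) and induces IRF1 among others. IRF7 is itself induced by interferon and amplifies the type I response, and the effectors restrict viruses and intracellular microbes.

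The promoter windows of these genes show which of the sequences that those factors bind lie near the start sites. RefSeq windows of the assembly GRCr8, with 250 bases before and 50 bases after the start, were at hand for 7 of the 9 symbols. An ISRE core, which is GAAA, any 2 bases and GAAA again on either strand, was found in 3 of the 7 windows, against 3.92% of 33469 windows of all genes. A GAS core, TTCNNNGAA, which reads the same on both strands, was found in 2 of the 7, against 8.87% of all windows. The 5 windows with a match are printed 5′ to 3′ on the strand of the gene, with the matched letters in capitals. No match to either core was found in the windows of STAT2 and MX1.
IRF7: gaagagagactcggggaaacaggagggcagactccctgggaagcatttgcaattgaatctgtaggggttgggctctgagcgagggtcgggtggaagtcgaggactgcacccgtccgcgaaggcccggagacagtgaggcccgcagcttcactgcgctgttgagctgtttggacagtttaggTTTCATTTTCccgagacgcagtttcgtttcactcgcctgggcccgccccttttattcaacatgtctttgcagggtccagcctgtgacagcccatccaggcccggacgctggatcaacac
GBP2: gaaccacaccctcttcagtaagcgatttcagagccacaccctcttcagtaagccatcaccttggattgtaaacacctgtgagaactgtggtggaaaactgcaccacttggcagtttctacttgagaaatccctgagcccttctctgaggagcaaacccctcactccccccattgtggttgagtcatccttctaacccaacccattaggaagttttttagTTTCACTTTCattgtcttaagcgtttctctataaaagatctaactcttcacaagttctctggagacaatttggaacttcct
IFIT3: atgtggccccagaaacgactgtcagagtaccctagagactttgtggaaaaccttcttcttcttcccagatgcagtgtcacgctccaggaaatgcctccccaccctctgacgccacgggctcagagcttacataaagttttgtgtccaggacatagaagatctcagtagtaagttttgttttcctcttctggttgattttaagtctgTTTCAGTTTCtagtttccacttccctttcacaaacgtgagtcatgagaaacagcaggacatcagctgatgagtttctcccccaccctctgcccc
IRF1: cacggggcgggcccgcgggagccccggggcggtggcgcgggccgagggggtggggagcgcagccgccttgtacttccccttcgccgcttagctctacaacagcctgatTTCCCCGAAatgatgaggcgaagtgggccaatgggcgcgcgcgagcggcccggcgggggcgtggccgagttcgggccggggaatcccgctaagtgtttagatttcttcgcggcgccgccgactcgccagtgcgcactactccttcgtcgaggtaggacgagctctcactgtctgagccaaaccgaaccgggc
IRF9: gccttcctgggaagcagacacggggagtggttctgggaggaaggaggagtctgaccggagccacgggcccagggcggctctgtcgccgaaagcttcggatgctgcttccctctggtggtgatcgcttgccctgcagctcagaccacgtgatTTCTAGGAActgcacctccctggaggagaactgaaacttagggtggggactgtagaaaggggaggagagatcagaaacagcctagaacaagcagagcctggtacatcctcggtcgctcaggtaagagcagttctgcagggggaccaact
The IRF7 window is chr1:205799974-205800273, with the gene on the minus strand, and the match began at base -69 relative to the start. In GBP2, chr2:234005477-234005776 on the plus strand, it began at -31. In IFIT3, chr1:241527076-241527375 on the plus strand, it began at -44. All 3 matches read TTTC, 2 bases and TTTC along the gene's strand, the reverse complement of the core. The GAS core of IRF1, chr10:38417685-38417984 on the plus strand, began at -142, and that of IRF9, chr15:33065586-33065885 on the plus strand, began at -99. These matches describe letters in a window of another assembly than the one the reads were mapped to, and binding was not measured.

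Of the transcription factors, IRF1, IRF7 and IRF9 were lower in vehicle glomeruli than in both other groups, in every library. IRF1 (ENSRNOG00000008144) had 73.9 and 74.2 CPM in AC1903, 49.0 and 50.7 CPM in vehicle, and 60.3 and 65.9 CPM in WT. The 3 groups did not overlap, and AC1903 stood highest. The log2 change of IRF1 was 0.57 (SE 0.15) in AC1903 against vehicle, -0.34 (SE 0.15) in vehicle against WT and 0.23 (SE 0.15) in AC1903 against WT.

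IRF7 (ENSRNOG00000017414), the amplifier of the type I response, had 27.1 and 36.1 CPM in AC1903, 17.9 and 21.4 CPM in vehicle, and 26.1 and 43.8 CPM in WT. Both vehicle libraries lay below the other 4, and the AC1903 values lay within the WT range. Its log2 change was 0.69 (SE 0.27) in AC1903 against vehicle, and 0.43 without AC1903 replicate 2. In vehicle against WT it was -0.83 (SE 0.27), and -0.41 without WT replicate 2. Between AC1903 and WT the change was -0.14 (SE 0.27), and it ran from -0.47 without WT replicate 1 to 0.27 without WT replicate 2.

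IRF9 (ENSRNOG00000019478), the main DNA-binding subunit of ISGF3, had 37.9 and 30.7 CPM in AC1903, 17.9 and 23.8 CPM in vehicle, and 26.1 and 35.6 CPM in WT. As with IRF7, vehicle was lowest in both libraries and the other groups overlapped. The log2 change was 0.72 (SE 0.23) in AC1903 against vehicle and -0.57 (SE 0.23) in vehicle against WT, where it was -0.33 without WT replicate 2. AC1903 against WT gave 0.15 (SE 0.23), with no stable direction, since it was -0.06 without WT replicate 1, -0.02 without AC1903 replicate 1 and 0.39 without WT replicate 2.

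STAT2 (ENSRNOG00000031081), which joins IRF9 in ISGF3, was an exception among the factors. Its levels were 59.5 and 51.2 CPM in AC1903, 36.7 and 57.9 CPM in vehicle, and 56.8 and 59.8 CPM in WT. Only vehicle replicate 1 was low, and the groups overlapped in all 3 comparisons. The log2 changes were 0.23 (SE 0.22) in AC1903 against vehicle, -0.30 (SE 0.22) in vehicle against WT and -0.076 (SE 0.22) in AC1903 against WT. Without vehicle replicate 1 the first was -0.068 and the second -0.012, and without vehicle replicate 2 they were 0.58 and -0.67. The third was 0.022 without AC1903 replicate 2.

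**Figure D1:**
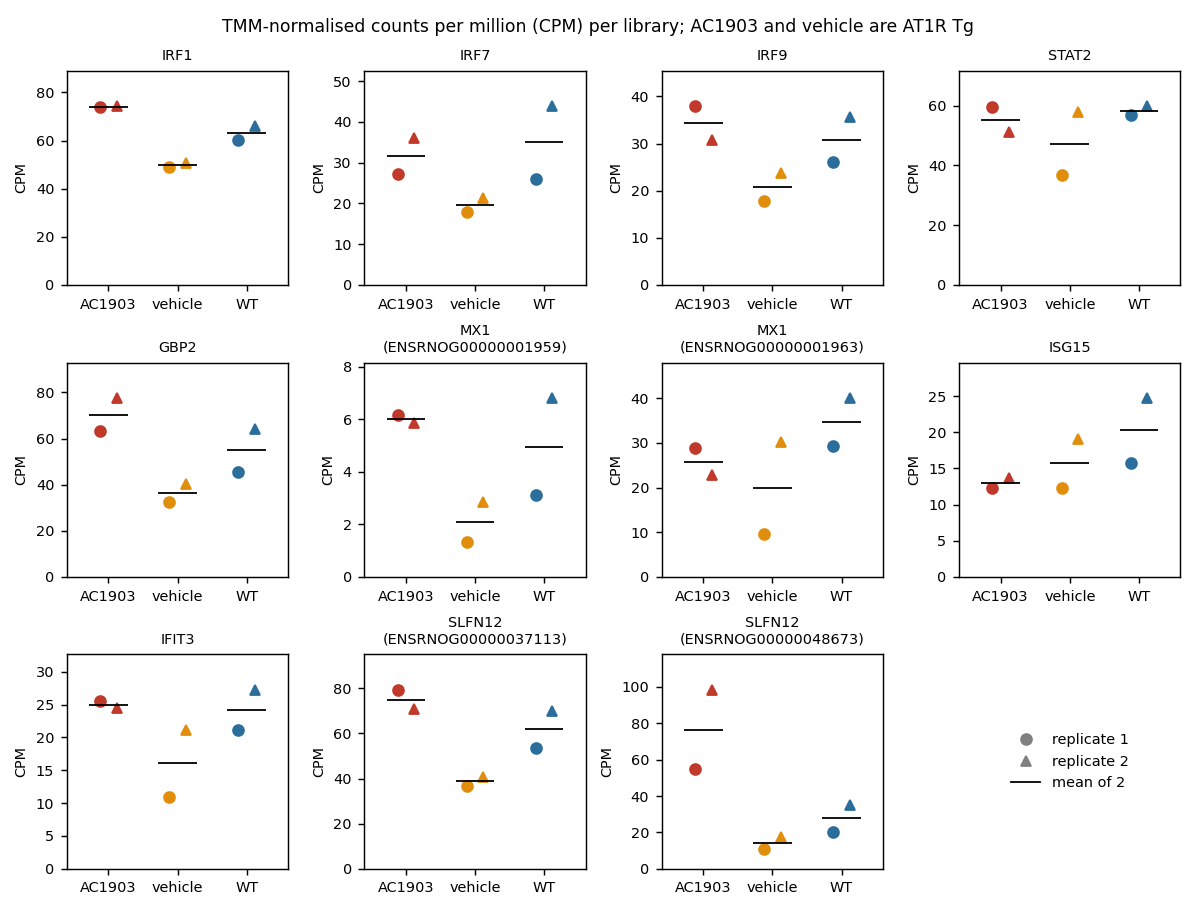
TMM-normalised CPM of each gene ID (y axis, from 0, own scale per panel) in AC1903, vehicle and WT glomeruli; circles and triangles are replicates 1 and 2, and the bar is their mean. IRF1, IRF7, IRF9, GBP2, 1 MX1 ID and both SLFN12 IDs have both vehicle libraries below the other 4 libraries, while STAT2, the other MX1 ID and IFIT3 have 1 low vehicle library.

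Among the effectors, GBP2 (ENSRNOG00000031743), a guanylate-binding protein induced mainly by interferon gamma that acts on vacuoles of intracellular microbes, followed the pattern of IRF7 and IRF9. It had 63.3 and 77.5 CPM in AC1903, 32.7 and 40.5 CPM in vehicle, and 45.7 and 64.3 CPM in WT. Vehicle was lowest in both libraries, and 1 AC1903 library stood above both WT libraries while the other lay between them. In AC1903 against vehicle the log2 change was 0.94 (SE 0.22), and it was -0.59 (SE 0.22) in vehicle against WT, or -0.32 without WT replicate 2. Between AC1903 and WT it was 0.35 (SE 0.21), and it ran from 0.12 without WT replicate 1 to 0.62 without WT replicate 2.

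IFIT3 (ENSRNOG00000022839), which belongs to a family that binds foreign RNA, had 25.5 and 24.5 CPM in AC1903, 11 and 21.2 CPM in vehicle, and 21.1 and 27.2 CPM in WT. Vehicle replicate 1 was far below the other 5 libraries, and vehicle replicate 2 was level with WT replicate 1. The log2 change was 0.64 (SE 0.30) in AC1903 against vehicle, which became 0.24 without vehicle replicate 1 and 1.18 without vehicle replicate 2. In vehicle against WT it was -0.59 (SE 0.30), with -0.19 and -1.13 under the same omissions. AC1903 against WT gave 0.053 (SE 0.29), with -0.12 without WT replicate 1 and -0.06 under total counts without TMM.

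ISG15 (ENSRNOG00000021802), a ubiquitin-like protein that is joined to other proteins during the interferon response, was the one gene with a fitted change below 0 in AC1903 against vehicle. It had 12.3 and 13.7 CPM in AC1903, 12.3 and 19.1 CPM in vehicle, and 15.8 and 24.7 CPM in WT. AC1903 was below WT in both libraries, and vehicle overlapped with both other groups. Its log2 change was -0.27 (SE 0.30) in AC1903 against vehicle, -0.37 (SE 0.29) in vehicle against WT and -0.64 (SE 0.29) in AC1903 against WT. The first value was 0.073 without vehicle replicate 2 and -0.56 without vehicle replicate 1. Vehicle against WT was -0.084 without vehicle replicate 1 and -0.0073 without WT replicate 2, and AC1903 against WT was -0.28 without WT replicate 2.

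MX1, an interferon-induced GTPase that blocks viral replication, was split over 2 rat IDs. ENSRNOG00000001959 had 6.16 and 5.84 CPM in AC1903, 1.34 and 2.85 CPM in vehicle, and 3.12 and 6.80 CPM in WT. Vehicle was lowest in both libraries, and AC1903 lay within the WT range. Its log2 change was 1.52 (SE 0.53) in AC1903 against vehicle, -1.25 (SE 0.52) in vehicle against WT and 0.27 (SE 0.49) in AC1903 against WT. AC1903 against WT had no stable direction, with -0.19 without WT replicate 1 and 0.94 without WT replicate 2. Vehicle against WT was -0.58 without WT replicate 2, -0.81 without vehicle replicate 1 and -1.88 without vehicle replicate 2.

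The other MX1 ID, ENSRNOG00000001963, took most of the counts and had a different pattern. It stood at 28.8 and 22.8 CPM in AC1903, 9.62 and 30.3 CPM in vehicle, and 29.3 and 40.0 CPM in WT. Here vehicle replicate 1 was low and vehicle replicate 2 was above both AC1903 libraries. The log2 change was 0.38 (SE 0.45) in AC1903 against vehicle, and it was -0.23 without vehicle replicate 1 and 1.41 without vehicle replicate 2. Vehicle against WT gave -0.80 (SE 0.44), with -0.20 and -1.85 under those omissions, and AC1903 against WT gave -0.43 (SE 0.44), with -0.19 without WT replicate 2. The share of this ID in the MX1 counts was 82.4% and 79.6% in AC1903, 87.6% and 91.4% in vehicle, and 90.4% and 85.5% in WT.

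Counts of both MX1 IDs were whole numbers, within 0.005, in 4 of 6 libraries, and their sum was whole in all 6. RSEM, the authors' counting tool, divides reads that map to more than 1 gene, so part of the split between the IDs is an estimate. Summed into 1 gene, a choice added after the data were seen, MX1 had log2 changes of 0.53 in AC1903 against vehicle, -0.85 in vehicle against WT and -0.32 in AC1903 against WT.

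SLFN12 held the largest difference between AC1903 and vehicle of the 11 IDs, on 1 of its 2 IDs. In human cells SLFN12 is an RNase that is activated when it binds the phosphodiesterase PDE3A, and several Schlafen genes are induced by interferon. ENSRNOG00000037113 had 79.2 and 70.8 CPM in AC1903, 36.6 and 40.9 CPM in vehicle, and 53.4 and 70.1 CPM in WT. No 2 groups overlapped, with AC1903 highest and vehicle lowest, although AC1903 replicate 2 was only just above WT replicate 2. The log2 change was 0.95 (SE 0.18) in AC1903 against vehicle, which is 1.94-fold, -0.67 (SE 0.18) in vehicle against WT and 0.28 (SE 0.18) in AC1903 against WT. Leaving out WT replicate 1 gave 0.093 for the last value, and leaving out WT replicate 2 gave 0.49.

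The second ID, ENSRNOG00000048673, carries the symbol SLFN12 in the authors' deposited table of vehicle against WT and SLFN12L in their table of AC1903 against vehicle. It had 54.7 and 98.2 CPM in AC1903, 10.6 and 17.7 CPM in vehicle, and 20.3 and 35.1 CPM in WT. The 3 groups did not overlap, and the AC1903 libraries differed widely from each other. The log2 change was 2.43 (SE 0.39) in AC1903 against vehicle, which is 5.4-fold. It was -0.97 (SE 0.37) in vehicle against WT and -0.52 there without WT replicate 2. Between AC1903 and WT it was 1.46 (SE 0.37), or 2.76-fold, and 0.97 without AC1903 replicate 2.

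The share of this second ID in the SLFN12 counts was 40.8% and 58.1% in AC1903, 22.5% and 30.2% in vehicle, and 27.5% and 33.4% in WT. AC1903 thus had the largest shares, and vehicle and WT overlapped. The sum of both IDs was whole within 0.005 in 1 of 6 libraries, so their reads were also shared with other genes, and the values of both IDs are uncertain. Which rat genes these IDs stand for could not be settled. Summed over both IDs, the SLFN12 counts had log2 changes of 1.52 in AC1903 against vehicle, -0.76 in vehicle against WT and 0.76 in AC1903 against WT.

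**Figure D2:**
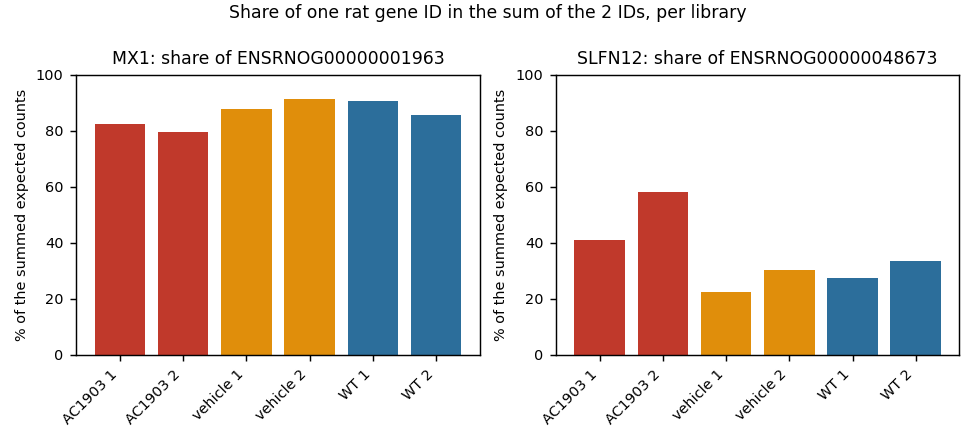
Percentage of the summed expected counts (y axis, 0 to 100) taken by 1 of the 2 rat IDs of MX1 (left) and of SLFN12 (right) in each library, with AC1903, vehicle and WT from left to right. The SLFN12 share was 40.8% and 58.1% in AC1903 and at most 33.4% in the other 4 libraries, while the MX1 share ran from 79.6% to 91.4%.

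Taken by comparison, the 11 IDs had a median log2 change of 0.69 in AC1903 against vehicle, with a range of -0.27 to 2.43, beside a median of -0.019 over all genes tested. In vehicle against WT the median was -0.59 with a range of -1.25 to -0.30, beside -0.029 over all genes. AC1903 against WT gave 0.15 with a range of -0.64 to 1.46, beside 0.0019. Any pair of these comparisons shares the libraries of 1 group, so they are not independent of each other. Of the 11 IDs, 10 had a change above 0 in AC1903 against vehicle, where 47.9% of all genes did. All 11 had a change below 0 in vehicle against WT, where 53.4% of all genes did. In AC1903 against WT 7 were above 0 (50.2% of all genes) and 4 below (49.8%).

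AC1903 lay above vehicle without overlap for 8 of 11 IDs (19.9% of all genes), and vehicle lay below WT without overlap for 7 of 11 (23.4%). Between AC1903 and WT, IRF1 and both SLFN12 IDs were higher without overlap (24.2% of all genes), while ISG15 and ENSRNOG00000001963 of MX1 were lower (23.5%). Nothing is read from these counts, since the genes were chosen from the same comparisons. A gene was called when its adjusted p was under 0.05 in edgeR's quasi-likelihood test over all genes. No member was called in AC1903 against vehicle (0% of all genes), in vehicle against WT (0.0745%) or in AC1903 against WT (0.0372%). At an unadjusted p under 0.05 there were 7 in AC1903 against vehicle (8.12%), 7 in vehicle against WT (11.9%) and 1 in AC1903 against WT (11.1%). Because the genes were chosen with these changes known, these counts and the calls by other methods below are no support either.

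DESeq2 called both SLFN12 IDs in AC1903 against vehicle (0.499% of all genes), none in vehicle against WT (4.25%), and ENSRNOG00000048673 in AC1903 against WT (1.35%). In the authors' deposited table of AC1903 against vehicle the same 2 SLFN12 IDs had an adjusted p under 0.05 (0.378% of its genes), and in their table of vehicle against WT no member did (4.42%). The log2 fold changes of those tables differed from the edgeR values by at most 0.0028 in AC1903 against vehicle and 0.033 in vehicle against WT.

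**Figure D3:**
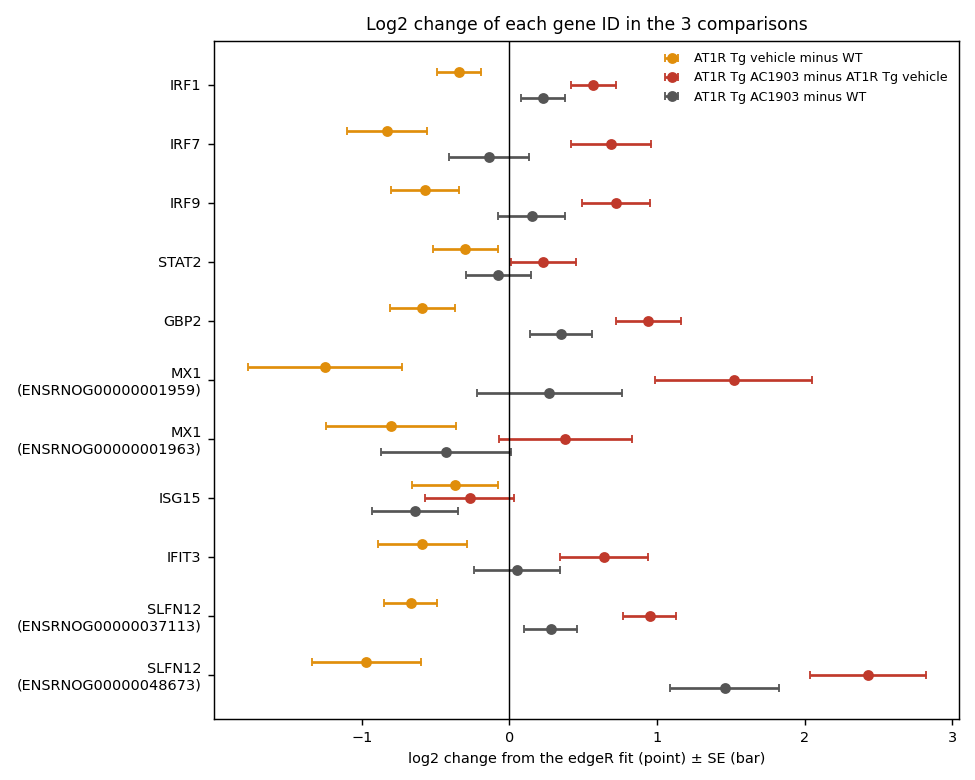
Log2 change (x axis) of each gene ID in the 3 comparisons from the edgeR fit on all 6 libraries; points are the fitted changes and bars the standard errors. Vehicle minus WT is below 0 for all 11 IDs and AC1903 minus vehicle is above 0 for all but ISG15, with 1 SLFN12 ID at 2.43.

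The libraries differed within groups in a way that most of these genes shared. With each gene's log2 CPM centred on its mean over the 6 libraries, the median over the 11 IDs was 0.29 and 0.27 in AC1903, -0.63 and -0.28 in vehicle, and -0.072 and 0.36 in WT. Vehicle replicate 1 held the lowest value of 10 of the 11 IDs, and WT replicate 2 held the highest of 6. AC1903 replicate 2 held the highest value of 3 IDs and AC1903 replicate 1 of 2. Without vehicle replicate 1 the median change was 0.54 in AC1903 against vehicle, with 8 of 11 IDs above 0, and -0.38 in vehicle against WT, with 11 of 11 below 0. Without WT replicate 1 the median of AC1903 against WT was -0.12, with 4 of 11 above 0.

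The vehicle libraries were from the younger rats on average, and age was tried as a covariate. The median was then 0.86 in AC1903 against vehicle, -0.72 in vehicle against WT and 0.14 in AC1903 against WT, and the number of IDs above and below 0 stayed at 10 and 1, 0 and 11, and 7 and 4. With few libraries a group and ages that differ between groups, this fit cannot separate age from group closely. The part of age was not tested.

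Profiles over the 6 libraries were compared by the root mean square (RMS) difference between centred log2 CPM values. IRF9 and ENSRNOG00000037113 of SLFN12 were nearest among the 11 IDs, with an RMS difference of 0.127, and GBP2 and the same SLFN12 ID followed at 0.145. ISG15 and ENSRNOG00000048673 of SLFN12 were farthest apart, at 1.15. Relative to the median profile, ISG15 stood at -0.64 and -0.47 in AC1903, 0.28 and 0.55 in vehicle, and 0.068 and 0.28 in WT. It was below the median of the 11 IDs in both AC1903 libraries and above it in the other 4.

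Of 12291 other genes with a symbol, those nearest to the median profile were HOXB9 (RMS difference 0.0814), SLC26A6 (0.101), UBA7 (0.103), SLC25A35 (0.105) and FERMT3 (0.105). The median gene was at 0.441 and a gene with a flat profile would be at 0.357. UBA7, the enzyme that activates ISG15 for conjugation, stood at 0.49 and 0.15 in AC1903, -0.62 and -0.23 in vehicle, and -0.14 and 0.35 in WT on the centred log2 scale. Nearest to ENSRNOG00000037113 of SLFN12 were ELMO1 (0.0659), C19orf66 (0.109), LNX1 (0.11), PSMB10 (0.115) and TMC8 (0.116), with the median gene at 0.494. C19orf66 encodes an interferon-induced antiviral protein and PSMB10 a subunit of the immunoproteasome, which cuts peptides for presentation to T cells. With 6 libraries, many genes come near a given profile, and these are named as a description.

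Other genes of the pathway were taken from lists of receptors, JAK-STAT signalling, nucleic acid sensors and other IRF genes with IRF2-binding proteins. Further lists held type I and gamma interferon-induced genes and other Schlafen genes. These lists were chosen with earlier results of these data known, so their counts beside all genes are a description and no independent support. Of 125 IDs 124 were tested, and none was called in any of the 3 comparisons by edgeR. No interferon ligand was paired with an ID, and ligands are not analysed here. In AC1903 against vehicle 100 had a change above 0 and 24 below, the median was 0.29, and 63 (50.8%) lay higher without overlap, where 19.9% of all genes did. An unadjusted p under 0.05 was reached by 22 of the 124 (8.12% of all genes). In vehicle against WT 25 were above 0 and 99 below, the median was -0.22, 54 (43.5%) lay lower without overlap where 23.4% of all genes did, and 18 had an unadjusted p under 0.05 (11.9% of all genes). AC1903 against WT had 72 above 0 and 52 below, a median of 0.055 and 13 with an unadjusted p under 0.05 (11.1% of all genes).

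**Figure D4:**
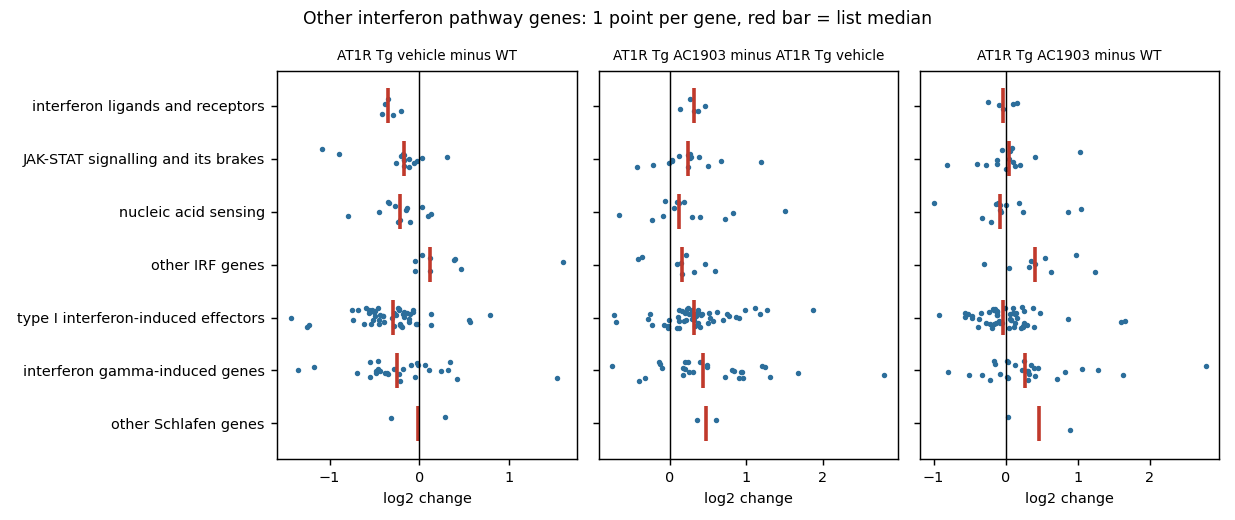
Log2 change (x axis) of each gene ID of the other interferon pathway lists, 1 point per ID, in the 3 comparisons, with the median of each list as a red bar. In AC1903 minus vehicle the medians of all 7 lists lie above 0, between 0.12 and 0.48.

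All 5 receptor chains had a change above 0 in AC1903 against vehicle and below 0 in vehicle against WT. IFNGR1, the ligand-binding chain of the interferon gamma receptor, had 82.6 and 80.0 CPM in AC1903, 56.7 and 61.7 CPM in vehicle, and 66.1 and 85.1 CPM in WT. IFNAR1, a chain of the type I receptor, had 76.9 and 81.9 CPM in AC1903, 64.2 and 68.4 CPM in vehicle, and 84.4 and 78.3 CPM in WT. Both receptors were thus lowest in vehicle, with edgeR adjusted p of 0.602 and 0.664 in AC1903 against vehicle and 0.478 and 0.49 in vehicle against WT.

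USP18, which damps signalling at the type I receptor, shared an ID with the symbol USP41 and had 2.34 and 10.2 CPM in vehicle and 10.8 and 15.6 CPM in WT (edgeR adjusted p = 0.511). Vehicle replicate 1 was the low library here as well. Of the 15 JAK-STAT genes 12 had a change above 0 in AC1903 against vehicle.

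The list of 9 other IRF genes also held IRF2BP1, IRF2BP2 and IRF2BPL, which encode IRF2-binding proteins and are not IRF factors themselves. Of these 9 genes 7 had a change above 0 in vehicle against WT, with a median of 0.11. IRF1, IRF7 and IRF9 had changes below 0 there. IRF4, a factor of lymphoid and myeloid cells, had 1.70 and 3.01 CPM in vehicle and 0.897 and 0.651 CPM in WT, a log2 change of 1.60 (SE 0.67; edgeR adjusted p = 0.391). IRF5, which acts downstream of Toll-like receptors, had 6.24 and 9.27 CPM in AC1903, 5.94 and 7.90 CPM in vehicle, and 4.95 and 5.10 CPM in WT. In AC1903 against WT 8 of the 9 had a change above 0, with a median of 0.41. The difference between these genes and the 3 factors was not tested.

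Among 52 tested type I effectors, 43 had a change above 0 in AC1903 against vehicle and 47 a change below 0 in vehicle against WT. HERC6, the ligase that in mice attaches ISG15 to proteins, had 37.8 and 33.5 CPM in AC1903, 18.8 and 22.8 CPM in vehicle, and 29.3 and 31.1 CPM in WT. Its log2 change was 0.78 (SE 0.18; edgeR adjusted p = 0.538) in AC1903 against vehicle and -0.54 (SE 0.18; edgeR adjusted p = 0.253) in vehicle against WT. RTP4, an interferon-induced inhibitor of viral replication, had 10.4 and 13.6 CPM in AC1903, 4.74 and 5.21 CPM in vehicle, and 8.51 and 14.7 CPM in WT. HELZ2, an interferon-induced helicase, had 140 and 104 CPM in AC1903, 70.9 and 80.4 CPM in vehicle, and 106 and 117 CPM in WT. In all 3 genes both vehicle libraries were below the other 4. They were named for having the smallest p of their list in both comparisons, so this order comes largely from that choice.

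Interferon gamma-induced genes had the second-highest list median in AC1903 against vehicle, 0.44, with 22 of 28 above 0. PSMB8, another immunoproteasome subunit, had 72.7 and 46.3 CPM in AC1903, 20.0 and 27.9 CPM in vehicle, and 25.9 and 41.1 CPM in WT. Its log2 change was 1.31 (SE 0.30; edgeR adjusted p = 0.538) in AC1903 against vehicle. PSMB10 had 55.2 and 60.5 CPM in AC1903, 27.7 and 34.3 CPM in vehicle, and 37.0 and 53.7 CPM in WT. IRGM, a GTPase of the defence against intracellular microbes, had 20.9 and 23.7 CPM in AC1903, 12.5 CPM in both vehicle libraries, and 17.4 and 16.5 CPM in WT. In these 3 genes AC1903 stood above both other groups, and vehicle was lowest for PSMB10 and IRGM and overlapped with WT for PSMB8. The 3 had the smallest p of their list in AC1903 against vehicle, so that difference comes largely from the choice.

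Of the other Schlafen genes only SLFN5 and SLFN11 were paired with an ID that is not a member, since SLFN12L led to ENSRNOG00000048673. SLFN5 had 102 and 90.0 CPM in AC1903, 78.8 and 71.0 CPM in vehicle, and 105 and 82.3 CPM in WT, so vehicle was lowest and the other groups overlapped. SLFN11, which in human cells blocks stalled replication forks, had 8.57 and 13.2 CPM in AC1903, 6.72 and 7.65 CPM in vehicle, and 4.81 and 6.94 CPM in WT. Its log2 change was 0.60 (SE 0.33; edgeR adjusted p = 0.662) in AC1903 against vehicle and 0.29 (SE 0.33; edgeR adjusted p = 0.795) in vehicle against WT.

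Levels of immune cell markers moved with these genes in part. The summed level of 19 macrophage and monocyte markers was 458 and 1079 CPM in AC1903, 286 and 366 CPM in vehicle, and 306 and 507 CPM in WT. All 19 had a change above 0 in AC1903 against vehicle, with a median of 1.31, and 17 of 19 had a change below 0 in vehicle against WT, with a median of -0.29. None was called by edgeR, and the smallest adjusted p was 0.518 in AC1903 against vehicle. CSF1R, the receptor that macrophages need to survive, had 33.4 and 73.5 CPM in AC1903, 17.3 and 25.8 CPM in vehicle, and 22.2 and 30.2 CPM in WT. AC1903 replicate 2 was the high library for these markers. It was highest for 3 of the 11 interferon and SLFN12 IDs, while WT replicate 2 was highest for 6 and AC1903 replicate 1 for 2. On the centred log2 scale the median over the 11 IDs was 0.29 and 0.27 in AC1903. For these markers it was 0.18 and 1.13.

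Lymphocyte markers summed to 32.4 and 36.8 CPM over 9 genes in AC1903, 15.4 and 16.9 CPM in vehicle, and 18.2 and 26.0 CPM in WT. CD4, which marks helper T cells and also rat macrophages, had 10.8 and 19.3 CPM in AC1903, 3.11 and 5.13 CPM in vehicle, and 6.42 and 7.83 CPM in WT. The 5 dendritic cell markers summed to 158 and 104 CPM in AC1903, 77.6 and 81.1 CPM in vehicle, and 98.4 and 99.2 CPM in WT. The sums of both lists were lowest in vehicle, but their median centred log2 CPM was not. It was 0.56 and 0.47 in AC1903, -0.12 and -0.084 in vehicle, and -0.80 and 0.28 in WT for lymphocyte markers. For dendritic cell markers it was 0.57 and 0.077 in AC1903, -0.45 and 0.017 in vehicle, and -0.07 and -0.081 in WT. The 4 neutrophil and mast cell markers summed to 10.8 and 17.7 CPM in AC1903, 9.84 and 8.47 CPM in vehicle, and 10.8 and 10 CPM in WT, of which KIT, a mast cell receptor, made 5.07 and 7.67 CPM in AC1903, 8.14 and 6.76 CPM in vehicle, and 6.06 and 3.39 CPM in WT. The median log2 change of these 4 was 2.09 in AC1903 against vehicle, with 3 higher without overlap (19.9% of all genes). In vehicle against WT it was -1.72, with 3 lower without overlap (23.4% of all genes). These medians rest on 4 genes, of which all but KIT had few counts in vehicle. None was called by edgeR, with smallest adjusted p of 0.549 and 0.26 in the 2 comparisons. CSF3R, the receptor for the neutrophil growth factor G-CSF, had 2.33 and 6.95 CPM in AC1903, 0.849 and 1.14 CPM in vehicle, and 2.30 and 2.66 CPM in WT. Its fold change was 4.67 in AC1903 against vehicle (edgeR adjusted p = 0.549). Listed at 0 were CCR2 and CD79A in vehicle replicate 1, GZMB in vehicle replicate 2 and CD79B in AC1903 replicate 2.

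Glomerular endothelial markers, 21 IDs, summed to 10437 and 8109 CPM in AC1903, 7503 and 8040 CPM in vehicle, and 10429 and 10490 CPM in WT, and 19 of them had a change below 0 in vehicle against WT. Podocyte markers summed to 12090 and 15538 CPM in AC1903, 19278 and 10448 CPM in vehicle, and 18046 and 15453 CPM in WT, with no common order of the groups. The 10 mesangial markers summed to 619 and 662 CPM in AC1903, 838 and 681 CPM in vehicle, and 861 and 970 CPM in WT, so AC1903 was lowest. Proximal tubule markers, given above, were highest in vehicle replicate 2 and lowest in WT replicate 2. The part of these cell types in the levels of the interferon genes was not tested.

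**Figure D5:**
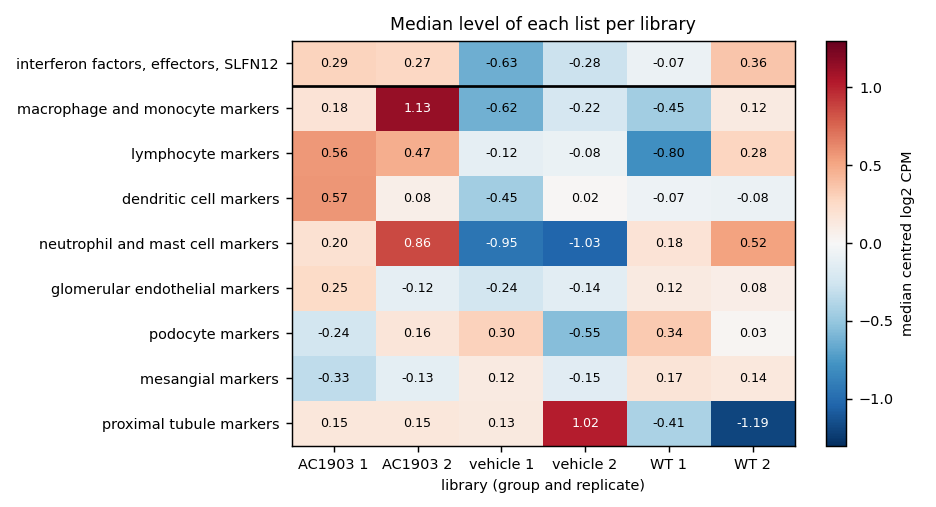
Median centred log2 CPM (colour and printed value) of the interferon genes with SLFN12 (top row) and of each list of cell type markers in each library (columns). The interferon genes run 0.29, 0.27, -0.63, -0.28, -0.07 and 0.36 from AC1903 to WT, and the macrophage and monocyte markers reach 1.13 in AC1903 replicate 2.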

How the data were processed

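The authors deposited expected counts per rat Ensembl gene, with groups, replicate numbers and ages taken from the sample labels. Per the submitters' processing notes the tools were RSEM 1.3.0 and STAR 2.5.2b with the build Rnor_5.0, and per the labels' protocols the mRNA kit was stranded. Log2 fold changes for AC1903 against vehicle and for vehicle against WT were deposited as well, per the file headers. Adjusted p-values in those tables were deposited by the authors, per the file headers. Neither the annotation release nor the tool behind these p-values is stated in the labels or headers. Symbols came only from those tables.

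Expected counts were rounded to whole numbers, filtered with filterByExpr by group and scaled by TMM. All 6 libraries were fitted with edgeR 4.0.16 in R 4.3.3 (quasi-likelihood test, two-sided, 3 residual degrees of freedom, Benjamini-Hochberg over 13426 genes, threshold 0.05). SE is the absolute log2 change over the square root of F. DESeq2 1.42.0 and voom of limma 3.58.1 were alternatives, with other scalings, filters and designs and each library left out in turn. The calling step was tested on simulated data with a smaller spread than these libraries had and larger changes than most members had. That test cannot show how well changes of the members' size are called. Centred profiles used a prior count of 2.

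Members, lists and tests were chosen with earlier results of these data known. Named were all members, up to 3 genes of smallest p per pathway list and comparison with a mean of at least 1 CPM, of which the text gives a part, up to 2 genes per marker list, and the 5 nearest profiles. A gene of the JAK-STAT list is not reported here. Promoter windows came from RefSeq, GRCr8. The 2 libraries of a group differed beyond sampling noise (chi-square divided by its degrees of freedom was 17.1 in AC1903, 81.9 in vehicle and 47.2 in WT), so none was taken as a duplicate. The depth of a library limits the precision of low genes such as ENSRNOG00000001959 of MX1.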

Additional observations from a re-analysis of the deposited data

How the results depend on the processing

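The median change of the 11 IDs stayed above 0 in AC1903 against vehicle (0.54 to 1.03 with 1 library left out, 0.65 to 0.86 under other settings) and below 0 in vehicle against WT (-0.82 to -0.38, and -0.78 to -0.54). In AC1903 against WT it ran from 0.039 to 0.17 under other settings and from -0.12, without WT replicate 1, to 0.29 with 1 library left out. Total counts without TMM moved the median of all genes to -0.19 in vehicle against WT and -0.12 in AC1903 against WT, and relative to it the members stood at -0.60 and 0.16, against -0.56 and 0.15 with TMM. Of 528 values of single members under the alternatives, 503 moved by less than the spread between replicates, and 23 moved by more with the same sign. Most alternatives reuse the same libraries. With 1 library left out, 175 values moved by less than the spread, 21 by more with the same sign, and 2 reversed beyond it. Of the 528 values 11 changed sign, 3 in AC1903 against vehicle, 0 in vehicle against WT and 8 in AC1903 against WT. Of these, 9 stayed within the spread and 2 went beyond it, namely STAT2 in AC1903 against vehicle (-0.068 without vehicle replicate 1, up to 0.58) and IRF7 in AC1903 against WT (0.27 without WT replicate 2, down to -0.47). Genes called in AC1903 against vehicle numbered 0, and 67 with DESeq2, 114 with no filter, 1 with age as a covariate, 2 with the replicate block and 0 to 4 with 1 library left out. In vehicle against WT 10 were called, and 560 with DESeq2, 774 with no filter, 4 with age, 4 with 2 groups only, 4 with the block and 1 to 530 with 1 library left out. In AC1903 against WT 5 were called, and 181 with DESeq2, 464 with no filter, 21 with 2 groups only, 8 without TMM and 1 to 25 with 1 library left out. Of the other pathway genes, DESeq2 called 2 in AC1903 against vehicle (PSMB8, and an ID of GBP1 and GBP3 named here for its call) and 1 in vehicle against WT (RTP4). With no filter there were 3 in AC1903 against vehicle, 1 in vehicle against WT and 1 in AC1903 against WT, and 0 with any library left out. Of the members the block called ENSRNOG00000048673 of SLFN12 in AC1903 against vehicle, where it called 2 genes in all. With no filter 3 members were called in AC1903 against vehicle, 3 in vehicle against WT and 1 in AC1903 against WT. That setting called 114, 774 and 464 genes in all, and nothing is read from these member calls. The labels pair same-numbered libraries by nothing but the replicate number, although vehicle replicate 1, WT replicate 1 and AC1903 replicate 2 share an age of 20.4 weeks. Deviations of same-numbered libraries over all genes correlated at -0.0409, 0.00458 and -0.0203. These correlations cannot show whether libraries were handled together, and the block is given for completeness. The cause of these shifts was not tested. With 2 libraries a group and 12325515 counts in the smallest library, changes of low genes could not be measured closely.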
